A study of Drosophila melanogaster with 4 samples.

Results

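The 6 genes described here are grouped as regulators of the transcription, chromatin or messenger RNA of spermatocytes. These are the male germ cells that prepare for meiosis, and the genes were measured in ovaries of Drosophila melanogaster. They were taken as the rows of the deposited tables named Taf12L, aly, can, Rbp4, CG13597 (now tbrd-1) and HP1D3csd, 6 of 1283 listed genes. The mutant ovaries came from 3-day adults of the genotype y w snf[148] v, and the wild-type ovaries from virgin y w females of 0 to 24 hours after eclosion, with 2 RNA sequencing libraries for each genotype. Both genotypes carried the body and eye colour markers y and w, and the eye colour marker v was in the mutant alone. The product of snf (sans fille) is a subunit shared by the U1 and U2 particles of the spliceosome, and germ cells of snf148 females lack Sex-lethal protein and form tumours. Genotype, age, the v marker and possibly mating status cannot be told apart in any value below.

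Spermatocytes switch on a large set of genes before meiosis, many of them used only later, in spermatids. This switch depends on proteins that are variants of general machinery: testis forms of the TBP-associated factors (TAFs) of the transcription factor TFIID, and the testis meiotic arrest complex (tMAC), a relative of the widely expressed Myb-MuvB complex. Males that lack one of these proteins have spermatocytes that arrest before the meiotic divisions, which gives the "meiotic arrest" genes their name. Bromodomain proteins read acetylated histones beside the testis TAFs, RNA-binding proteins hold back the translation of cell cycle messages, and relatives of heterochromatin protein 1 (HP1) act on chromatin.

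All 6 genes were higher in snf148 ovaries, by 8.96-fold to 60.3-fold, with a median log2 ratio of 4.69. The count is no finding by itself, because a gene could be chosen only if it was listed, and 51.8% of the listed genes were higher. Levels are the authors' mean FPKM, fragments scaled to the length of the transcript and to the mapped fragments of the library. A pair of levels is given with snf148 first. Of 296 listed genes below 1 FPKM in wild type, 282 or 95.3% were higher, so for the 5 regulators below that level the direction follows largely from the listing. The median log2 ratio was 2.37 over the 665 higher genes and 0.69 over all listed genes. The deposited values are means with no value per library, so no SD stands beside them, no test of the libraries was possible and the depth is unknown. In whole ovaries, a change in the number of cells of a type and a change in RNA per cell cannot be told apart.

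**Figure D1:**
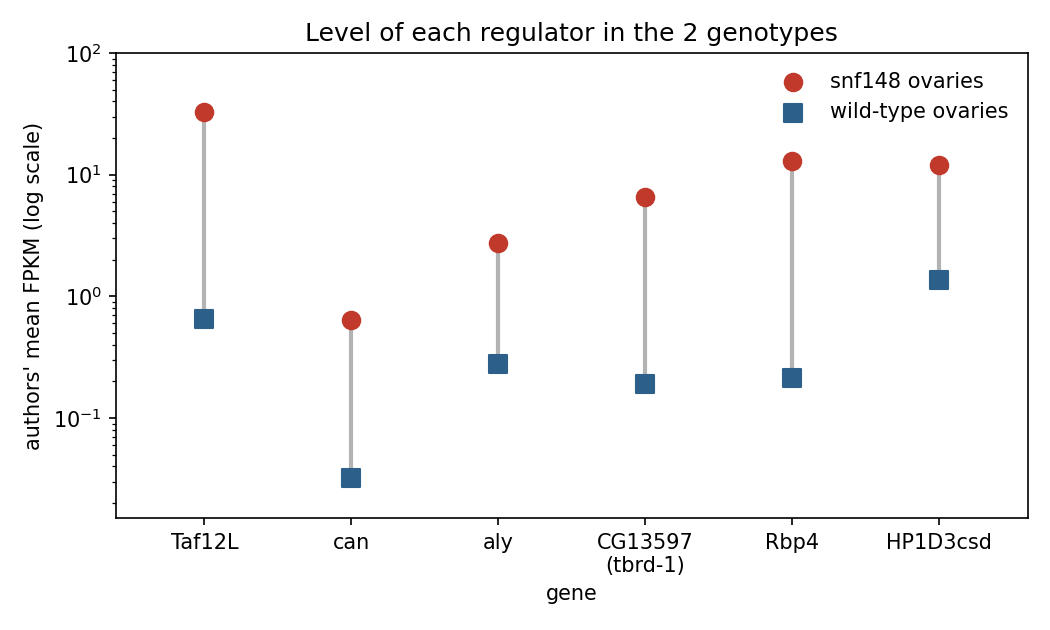
Authors' mean FPKM (log scale) of each regulator in snf148 ovaries (red circles) and wild-type ovaries (blue squares), with a grey line joining the pair; no replicate error is given in the tables. The wild-type values lie between 0.0324 and 1.35 FPKM and the snf148 values between 0.635 and 32.9 FPKM, each snf148 value above its wild-type value.

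Taf12L and can encode testis TAFs. Taf12L, a histone-fold TAF related to the general subunit Taf12, had the highest level of the 6 genes in snf148 ovaries, 32.9 FPKM against 0.646 FPKM in wild type. This was a 51.0-fold difference, with an adjusted P value of 0.00126 in the authors' deposited table. The gene can (cannonball), a relative of Taf5 and one of the classic meiotic arrest genes, stood at 0.635 against 0.0324 FPKM, a ratio of 19.6 or 4.29 on the log2 scale. This ratio depends on the treatment of very low values: the log2 ratio was 2.47 with a pseudocount of 0.1 FPKM and 0.66 with 1 FPKM. The gene was the weakest of the 6 in both genotypes, with an adjusted P value of 0.0380 in the authors' deposited table. Only 38 of the 665 higher genes had a lower level in snf148 than can. The level of Taf12L was 51.9 times that of can in snf148 ovaries and 19.9 times in wild type, although the proteins belong to the same set of testis TAFs.

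The deposited locus of can runs from 10257009 to 10260211 on 3L, in a build that the tables do not name. The Taf12L row carries a locus that is much longer than its gene, from 4694721 to 4722465 on 2L, a span of 27745 bases. In the release 6 annotation Taf12L spans 651 bases with 2 exons. It lies inside an intron of dcma, a gene on the opposite strand that spans 27745 bases itself. Their exons share 0 bases in that annotation. The libraries were stranded per the labels, but how the authors' counting used strand is not given in the sources used here. The deposited locus therefore matches the host gene in length, and the part that dcma RNA has in the Taf12L value was not tested. dcma is not among the listed genes.

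The gene aly (always early) encodes the tMAC counterpart of the Myb-MuvB subunit Mip130, and is needed in spermatocytes for the transcription of meiotic cell cycle genes as well as of spermatid genes. It stood at 2.73 FPKM in snf148 ovaries and 0.278 FPKM in wild type, 9.85-fold apart, with an adjusted P value of 0.00126 in the authors' deposited table. Its locus, from 3024129 to 3026521 on 3L, has the same span of 2393 bases as the release 6 gene, which has 3 exons. Its level in snf148 was above that of 154 of the 665 higher genes.

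CG13597 encodes tBRD-1, a testis bromodomain protein that works with the testis TAFs in spermatocytes. Its level was 6.50 FPKM in snf148 and 0.192 FPKM in wild type, a ratio of 33.9, with an adjusted P value of 0.00126 in the authors' deposited table. The locus runs from 19717319 to 19719105 on 3R and spans 1787 bases, against 1964 for tbrd-1 in release 6. There, 43 exonic bases overlap CR46402, a gene on the opposite strand, so reads over this short stretch may have been shared.

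Rbp4 encodes an RNA-binding protein that keeps the CycB message from being translated in immature spermatocytes. It stood at 12.9 FPKM in snf148 and 0.214 FPKM in wild type, 60.3-fold apart, with an adjusted P value of 0.00126 in the authors' deposited table. Among the 626 higher genes above 0 in both genotypes this ratio ranked 10, and that of Taf12L ranked 15. With a pseudocount their order turned, to log2 ratios of 5.37 for Rbp4 and 5.47 for Taf12L at 0.1 FPKM, and 3.52 and 4.37 at 1 FPKM. CycB itself, which drives germ cells of both sexes through division, was listed in the opposite direction, at 212 against 466 FPKM. The Rbp4 locus runs from 9480278 to 9482116 on 3R, with the same span of 1839 bases and 5 exons in release 6.

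HP1D3csd, an HP1 relative named for its chromoshadow domain, was the one X-linked gene of the 6. It is grouped with the others as an HP1 relative, and its role in spermatocytes was not tested. Its level was 12.1 FPKM in snf148 and 1.35 FPKM in wild type, 8.96-fold apart, with an adjusted P value of 0.00126 in the authors' deposited table. This was the smallest ratio of the 6 with no pseudocount, but with one its log2 ratio, 3.07 at 0.1 FPKM and 2.48 at 1 FPKM, stood above those of aly (2.91 and 1.55) and can (2.47 and 0.66). It was the only one of the 6 genes above 1 FPKM in wild type. The locus, from 19084247 to 19085062 on X, holds a single-exon gene of 816 bases. The end of the Mec2 gene, a stomatin relative on the same strand, lies 20 bases before its start in the deposited loci and in release 6. Mec2 was itself listed as higher, at 15.9 against 4.44 FPKM or 3.57-fold, a smaller ratio than that of HP1D3csd. Whether reads from the end of Mec2 add to HP1D3csd was not tested.

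Ordered by mean level, the genes in snf148 ovaries ran Taf12L, Rbp4, HP1D3csd, CG13597, aly and can; in wild type they ran HP1D3csd, Taf12L, aly, Rbp4, CG13597 and can. The steps in snf148 were 2.55-fold from Taf12L to Rbp4, 1.07-fold from Rbp4 to HP1D3csd, 1.86-fold to CG13597, 2.38-fold to aly and 4.30-fold to can. In wild type, aly stood 1.30-fold above Rbp4 and Rbp4 1.11-fold above CG13597. Without replicate values no neighbours in either order can be said to differ. The 3 genes aly, Rbp4 and CG13597 thus stood within a narrow range in wild type, 0.192 to 0.278 FPKM, and spread from 2.73 to 12.9 FPKM in snf148. Rbp4 was at 0.770 times the level of aly in wild type and at 4.72 times its level in snf148.

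**Figure D2:**
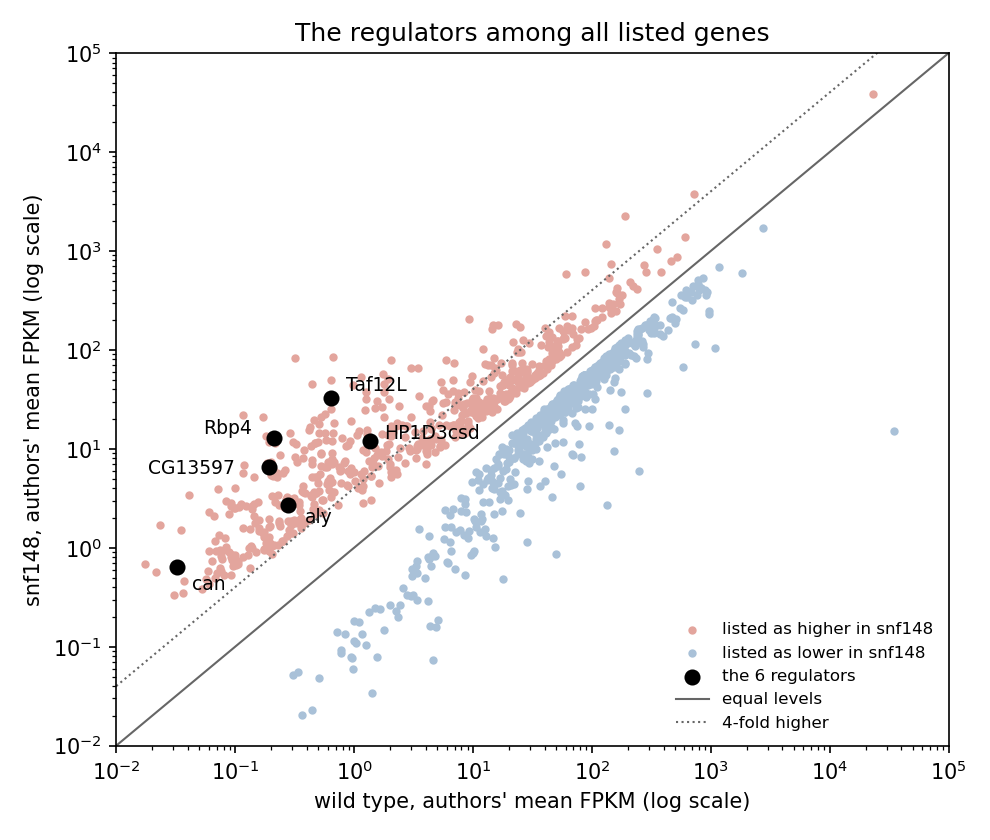
Authors' mean FPKM in wild type (x axis) and snf148 (y axis), both on log scales, of the listed genes above 0 in both genotypes; black points are the 6 regulators, the solid line marks equal levels and the dotted line a 4-fold higher level in snf148. All 6 regulators lie above the 4-fold line, at the low end of wild-type expression.

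With at least a 4-fold difference required, all 6 genes remained, beside 30.2% of all listed genes that were higher by at least that much. With adjusted P values up to 0.01 in the authors' deposited table, 5 of the 6 genes remained, without can, beside 33.0% of the listed genes that were higher and passed that limit. Low genes enter the tables only with large ratios: among the higher genes below 1 FPKM in wild type the smallest ratio was 3.73. For 5 of the 6 genes the authors' deposited table gives the smallest P value it holds, 5e-05, and the smallest adjusted P value, which 466 listed genes share. These values therefore do not rank the 5 genes against each other. The exception was can, with a P value of 0.00375 in the authors' deposited table; 125 listed genes have a larger adjusted P value.

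The other genes of these machineries are given here by how many were listed at all. Under the Benjamini-Hochberg formula the deposited P values imply 11777 tests, of which 1292 or 11.0% passed in either direction, 9 more than the 1283 genes analysed here. Of 5 testis TAFs, 2 were listed, Taf12L and can, and 0 of 15 genes of general TFIID. Of 7 tMAC genes, only aly was listed, and 0 of 11 genes on a list of the dREAM and general Myb-MuvB complexes. Taf12L, can and aly were themselves chosen as listed genes, so the contrast with the general lists follows from the choice and is no result. No other testis TAF or tMAC gene of these lists was listed. Of 15 Polycomb group genes, whose repression the testis TAFs are known to counteract, 0 were listed. A gene that is not listed has no value here and may not have been tested, so these counts say nothing of its level.

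Among 10 genes of the testis bromodomain proteins and their cofactors, CG13597 and CG5204 were listed, both higher. These are 20% of the list, beside 11.0% of all tests that passed. CG13597 was itself chosen as a listed gene, and without it CG5204 alone remained, which does not set the list apart from the 11.0%. CG5204, now kmg, encodes a zinc finger protein that keeps genes of other cell types silent in spermatocytes. It stood at 1.87 FPKM in snf148 and 0.234 FPKM in wild type, 7.99-fold apart, with an adjusted P value of 0.00925 in the authors' deposited table. Of 9 HP1 family genes, only HP1D3csd was listed, and it was itself chosen as a listed gene.

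Of 17 genes on a list of spermatocyte RNA regulators, 4 were listed as higher and 2 as lower. These are 35.3% of the list, beside 11.0% of all tests that passed. Rbp4 was itself chosen as a listed gene, and the list was drawn up with earlier results of these data known. How many of the 17 were tested is not known either, so the share is no sign of an excess. Besides Rbp4, the higher ones were eIF4E-3, a cap-binding factor of spermatocytes, at 45.6 against 0.443 FPKM, and eIF4G2, its partner in male meiosis, at 33.8 against 20.4 FPKM. The last was loco at 36.5 against 23.0 FPKM, a regulator of G protein signalling whose place on the list is loose. The lower ones were CycB and the SR splicing factor B52, at 148 against 314 FPKM. The list thus held near-silent genes of the testis, eIF4E-3 and Rbp4, beside genes that wild-type ovaries express well.

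Of 29 genes on a list of terminal differentiation genes, many of which need aly or can for their transcription in spermatocytes, 2 were listed as higher and 1 as lower. This is close to the 11.0% of all tests that passed. The higher ones were ocn, a testis gene beside the janus genes, at 11.5 against 0.467 FPKM, and r-cup, a gene transcribed in spermatids, at 2.17 against 0.468 FPKM. The lower one was Dhod, a pyrimidine synthesis enzyme that is not specific to the testis, at 52.8 against 102 FPKM. The protamine-like and Mst genes on that list were not among the listed genes.

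The genes with the most similar pair of levels were found by the distance over log2 mean FPKM in the 2 genotypes. With only 2 means per gene, this measure describes level and ratio and nothing else. For Taf12L these were Hsp70Bc, a heat shock gene whose reads are shared with near-identical copies, at 25.5 against 0.644 FPKM, and TrxT, the testis thioredoxin, at 22.5 against 0.567 FPKM. For aly they were Rpt6R, a paralogue of a proteasome subunit, at 2.86 against 0.275 FPKM, and Tbh, an enzyme of octopamine synthesis, at 2.56 against 0.272 FPKM. The gene nearest to aly was thus only 0.066 log2 units away, and that nearest to Taf12L 0.37.

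For Rbp4 the nearest genes were CG6999 at 11.3 against 0.217 and CG15599 at 11.6 against 0.193 FPKM, and for CG13597 they were CG8119 at 6.21 against 0.210 and CG1394 at 7.25 against 0.186 FPKM. For HP1D3csd they were the lysozyme gene LysX, at 14.0 against 1.28 FPKM, and the noncoding CR32690, at 10.3 against 1.49 FPKM. The nearest to can were CG33235, at 0.456 against 0.0372 FPKM, and CG1504, at 0.563 against 0.0215 FPKM. Several genes with unlike roles thus had nearly the same levels as a regulator in both genotypes.

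Markers of the tissue went both ways; their counts stand beside the 11.0% of all tests that passed and the 51.8% of listed genes that were higher, and with so few genes a list they show no more than the values named. The oocyte gene osk is on none of the marker lists and was chosen after its value was seen. It stood at 248 against 967 FPKM, and so was detected in both genotypes. Of 7 germ cell markers, 2 were listed, both higher: bgcn, which acts in early germ cell differentiation, at 21.1 against 1.78 FPKM, and the stathmin gene stai at 263 against 142 FPKM. Of 7 follicle and escort cell markers, Fas3 and cas were listed, both higher, at 165 against 53.2 and 11.7 against 3.74 FPKM. Of 6 muscle markers, Act79B at 1.02 against 15.4 FPKM and Act88F at 2.91 against 13.7 FPKM were listed, both lower. Of 6 fat body markers, Rfabg was listed as higher, at 59.8 against 25.3 FPKM, and Lsp1gamma as lower, at 39.0 against 141 FPKM. On a list of 12 genes named for the testis soma and male accessory gland, 0 were listed. That list also held Ebp, EbpII, PebIII, dsx and msl-2. Genes that are not listed have no value here, so the 0 says nothing of their levels. The part of the marker shifts in the levels of the 6 regulators was not tested.

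The listed genes nearest to the 6 regulators on the chromosome were mostly higher as well, 9 of the 12 nearest on either side, beside 51.8% of all listed genes. Taf12L was preceded by CG3251, 4.02 kb from its deposited locus, at 8.20 against 0.320 FPKM, and by CG11929 at 2.53 against 0.0978 FPKM. Their ratios of 25.6 and 25.9 were nearly equal. Within 100 kb, counted between midpoints, 3 listed genes lay near Taf12L, 3 near aly, 3 near CG13597 and 0 near can, all of them higher. For Taf12L the midpoint is that of its deposited locus, which is much longer than the gene, so its distances are approximate. The nearest listed genes of can were vnc, lower at 74.7 against 142 FPKM, and CG12362, higher at 1.87 against 0.330 FPKM. Beside CG13597 lay RpS19b, a germline ribosomal protein paralogue, 39.3 kb away and 22.1-fold higher, and eIF4G2, 72.4 kb away and 1.66-fold higher. For aly they were CG1143, 9.10-fold higher, and CG32486, 2.59-fold higher.

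Of the 5 listed genes within 100 kb of Rbp4, 3 were lower and 2, farther away, were higher. Its nearest listed genes on either side were both lower in snf148: rin, the fly G3BP gene, at 117 against 176 FPKM and 1.52 kb away, and B52, 4.91 kb away. The next one, sqd, which encodes an RNA-binding protein that localises oocyte messages, was lower too, at 212 against 336 FPKM. The 60.3-fold higher gene thus stood between 3 genes that were lower and well expressed in wild type. In release 6, rin ends 28 bases from Rbp4 on the opposite strand, closer than in the deposited loci. There, Hrb87F, which is not among the listed genes, lies 451 bases from Rbp4 on the same strand. Whether reads from Hrb87F add to Rbp4 was not tested. HP1D3csd lay between Mec2 and CG7990, the latter 3.27-fold higher at 6.52 against 1.99 FPKM, and within 100 kb it had 4 higher and 1 lower listed neighbours. No test was made of these neighbourhoods.

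**Figure D3:**
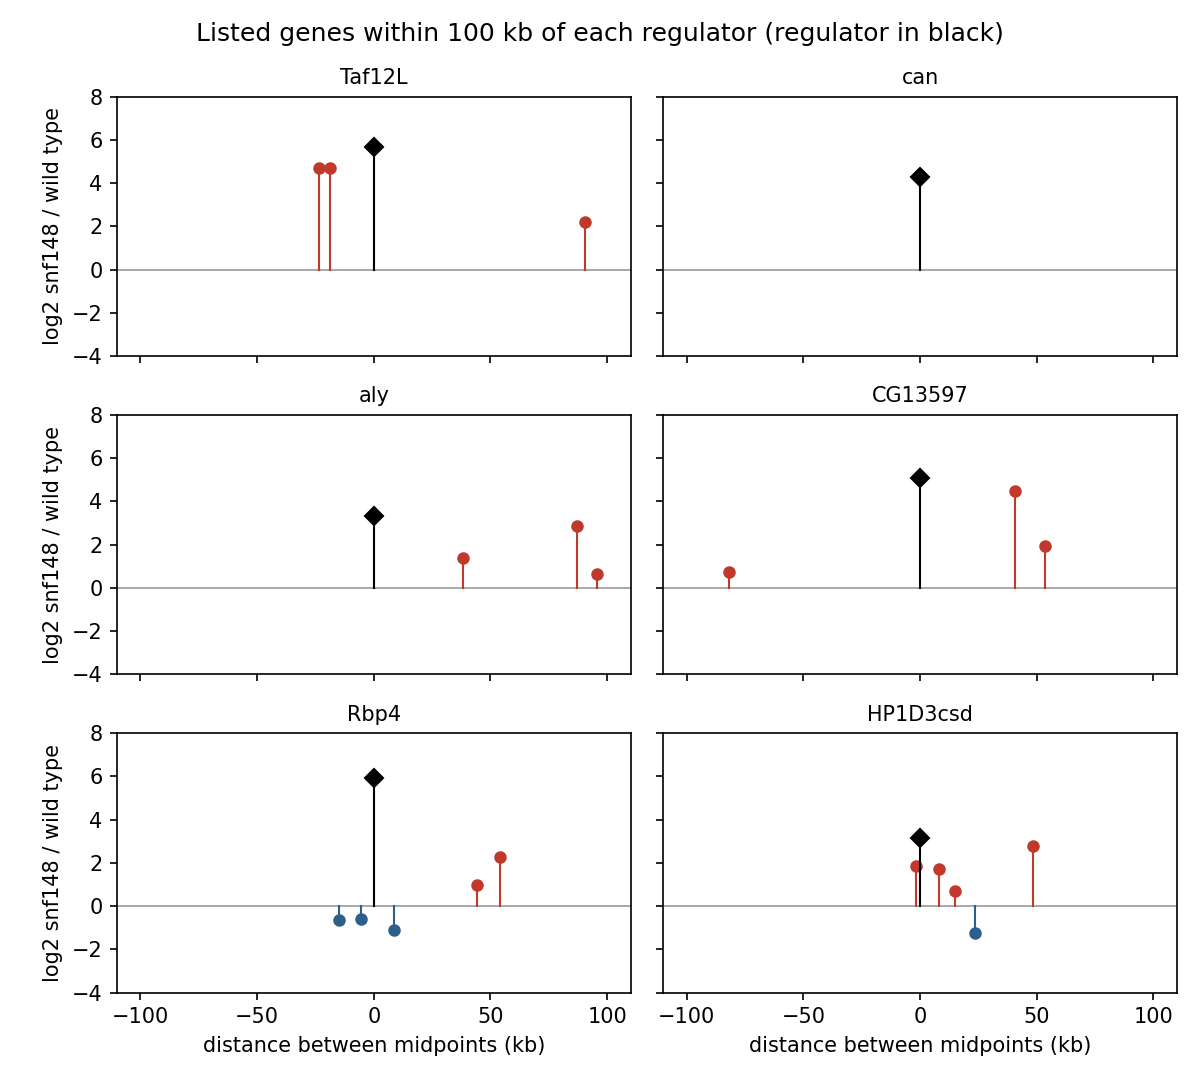
Log2 ratio of snf148 over wild-type mean FPKM (y axis) of each regulator (black diamond) and of the listed genes with midpoints within 100 kb (red, higher in snf148; blue, lower), by the distance between midpoints in kb (x axis). For Taf12L the midpoint is that of its deposited locus, which is much longer than the gene. Rbp4, with a log2 ratio of 5.91, stands beside 3 lower genes, sqd, rin and B52, with 2 higher genes farther away, whereas the listed genes near Taf12L, aly and CG13597 are all higher and can has 0 within this distance.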

How the data were processed

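RNA of 2 snf148 and 2 wild-type ovary samples was sequenced from stranded total RNA libraries, per the labels. TopHat2 2.0.9 and Cuffdiff are the tools named in the submitters' processing notes; for the build, annotation and counting options, nothing is stated in the sources used here. Per the file headers, the authors deposited mean FPKM per genotype, the log2 of wild type over mutant, and a P value and adjusted P value per gene.

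Here, ratios were recomputed as snf148 over wild type from the deposited FPKM with no pseudocount (pandas 2.3.3, numpy 2.4.6); for the 6 genes they differed from the authors' log2 values by at most 3.59e-06. Starts were moved to count from 1. The planned limma fit could not be run without values per library. The deposited P and adjusted P values gave whole Benjamini-Hochberg ranks, to within 0.00272, at all 108 distinct P values when 11777 tests were assumed, with the last rank at 1292, 9 above the 1283 genes analysed here. The helper functions were tested on simulated data. Release 6 annotation (Ensembl BDGP6) was used for gene structure and names only.

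The 6 genes and the lists were chosen with earlier results of these data known. Named genes were the 6 genes, the 2 listed genes nearest to each by levels, the nearest listed gene on either side, and listed members of the fixed lists. Chosen after values were seen were osk and the second neighbours CG11929 and sqd. Alternatives were pseudocounts of 0.1 and 1 FPKM, the authors' log2 values, at least 1 FPKM, an adjusted P value of at most 0.01 and at least 4-fold.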

Additional observations from a re-analysis of the deposited data

How the results depend on the processing

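No paired analysis was possible because the tables hold means per genotype, and for the same reason leaving out a replicate was not run. A pseudocount cannot turn the direction of a ratio, and the authors' log2 values are the same ratios, so neither bears on the direction. The ratios and medians given here changed by more than 1.5-fold from those of the report. With a pseudocount of 1 FPKM the log2 ratios were 4.37 for Taf12L, 0.66 for can, 1.55 for aly, 2.65 for CG13597, 3.52 for Rbp4 and 2.48 for HP1D3csd, with a median of 2.57. With 0.1 FPKM the ratio of can was 2.47 and the median 3.79. A pseudocount shrinks ratios of weak genes by construction, and the order of the 6 ratios changed with it. An adjusted P value of at most 0.01, or at least 1 FPKM in snf148, left 5 of the 6 genes, without can. The depth behind these levels is unknown.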
